A study of Mus musculus with 6 samples.

Results

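Small nucleolar RNAs (snoRNAs) were followed in RNA-seq libraries of mouse cranial base cartilage. They were chosen by symbol: a name of the form Snora or Snord followed by a number, which gave 110 of the 24346 symbols with a value. Of these, 36 were box H/ACA RNAs (Snora) and 74 were box C/D RNAs (Snord). The cartilage was the spheno-occipital synchondrosis, a growth cartilage between bones of the skull base, and the series sets its flat chondrocytes against its round ones. Laser microdissection of frozen sections gave 3 libraries with the title code FP and 3 with the code RR, numbered 11, 14 and 16 in each. No label spells out the codes, so they are kept as codes. Every animal, in FP and RR alike, carried Gli1CreERT2, a tamoxifen-inducible Cre driven by Gli1, with a floxed Tomato reporter, and was given tamoxifen at postnatal day 3. No age at collection is stated in the labels. Since no source ties the libraries to different animals, the p-values below reflect only how much these samples vary, and part of that may be technical.

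snoRNAs are short, stable RNAs of the nucleolus that base-pair with ribosomal RNA (rRNA) and carry an enzyme to it. Box C/D RNAs, bound by fibrillarin, guide methylation of ribose, and box H/ACA RNAs, bound by dyskerin, guide the conversion of uridine to pseudouridine. A few act instead in the cutting of the rRNA precursor. In mammals most are spliced out of introns of other genes, many of which encode ribosomal proteins, so that 1 primary transcript yields both an mRNA and a snoRNA.

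The sequences of 6 members are shown, since the totals rest on the first 3 and the group comparison on those whose FP and RR values overlap least. In the box C/D RNAs, capitals mark a TGATGA within the first 25 bases (the C box without the purine that precedes it) and the last CTGA within the final 25 bases (the D box). In the box H/ACA RNAs they mark the ACA that lies 3 bases from the 3′ end. All are GENCODE M21 transcripts on mm10, printed 5′ to 3′ as DNA letters. Snord15b lies at chr7:99479563-99479707 (minus strand) and Snord15a at chr7:99482785-99482932 (minus strand), both within Rps3. Snord22 lies at chr19:8725866-8725991 (plus strand) within Snhg1, and Snord33 at chr7:45126864-45126947 (minus strand) within Rpl13a. Snora24 lies at chr3:123507937-123508066 (minus strand) within Snhg8, and Snora23 at chr7:110046364-110046547 (plus strand) in an intron of Ipo7.
Snord15b: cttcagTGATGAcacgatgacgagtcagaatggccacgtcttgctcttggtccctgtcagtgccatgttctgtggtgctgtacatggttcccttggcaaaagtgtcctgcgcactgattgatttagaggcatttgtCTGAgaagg
Snord15a: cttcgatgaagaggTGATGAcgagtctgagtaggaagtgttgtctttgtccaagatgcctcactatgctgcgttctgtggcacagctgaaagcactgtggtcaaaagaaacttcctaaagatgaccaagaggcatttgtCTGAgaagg
Snord22: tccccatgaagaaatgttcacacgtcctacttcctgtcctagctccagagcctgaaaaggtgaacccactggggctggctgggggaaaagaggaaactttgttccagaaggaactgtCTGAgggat
Snord33: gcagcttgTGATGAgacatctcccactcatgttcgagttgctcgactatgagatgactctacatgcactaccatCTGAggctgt
Snora24: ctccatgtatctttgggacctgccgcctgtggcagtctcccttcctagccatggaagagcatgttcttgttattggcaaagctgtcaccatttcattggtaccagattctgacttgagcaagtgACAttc
Snora23: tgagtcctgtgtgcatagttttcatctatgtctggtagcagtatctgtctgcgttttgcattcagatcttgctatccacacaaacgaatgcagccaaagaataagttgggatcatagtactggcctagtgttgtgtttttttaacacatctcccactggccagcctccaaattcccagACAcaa

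These letters divided the classes much as the names do. TGATGA stood in the first 25 bases of 46 of the 73 Snord members with a GENCODE entry, and CTGA in the last 25 bases of 72 of them. Of the 36 Snora members, 0 had the first motif and 5 the second. The ACA 3 bases from the end was found in 29 of the 36 Snora members and in 0 of the 73 Snord members. Snord22 has no TGATGA in this window. Snord15b and Snord15a, which share a host gene and a name, were identical at 66.0% of aligned positions, whereas Snord1b and Snord1c were identical at 97.4%, and their separate values are uncertain.

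The 110 members were sparsely seen. Above 0 FPKM (fragments per kilobase of transcript, scaled to the fragments of the library) in at least 1 library were 76 members, 32 Snora and 44 Snord. In all 6 libraries 23 were above 0 (13 Snora and 10 Snord), in exactly 1 library 14, and in none 34 (4 Snora and 30 Snord). The number above 0 was 49, 50 and 60 in FP libraries 11, 14 and 16, against 38, 45 and 51 in RR libraries 11, 14 and 16. It was higher in FP at each library number, although the groups overlap. Among the RNAs listed at 0 throughout were Snord118, the U8 RNA of rRNA precursor processing, and all 4 listed members of the imprinted Snord116 and Snord64 loci.

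The size of an FPKM value of a snoRNA says little without its length, since the low values fell on steps of whole fragments. On the members that are 68 bases long in RefSeq, 1 fragment was worth 337, 669 and 489 FPKM in FP 11, 14 and 16, and 512, 803 and 460 FPKM in RR 11, 14 and 16. Each library had only 2 to 5 such values above 0, and its step was set from them. All were whole multiples of that step, up to 22 fragments, within 0.000352 of a fragment, which is in part by construction. Steps at other lengths followed an effective length with a mean fragment of 200 bases and an SD of 80 cut below 25 bases, a description chosen after the values were seen. With it, 95.5% of 179 snoRNA values below 10 fragments were whole within 0.1 of a fragment, where 20% would be by chance. RR 14 had the lowest share of whole values, 80%, and the other libraries had 96.4% to 100%. On 145 bases, the length of Snord15b, a fragment was worth 23.1, 46.0 and 33.6 FPKM in FP and 35.2, 55.2 and 31.6 FPKM in RR.

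**Figure D1:**
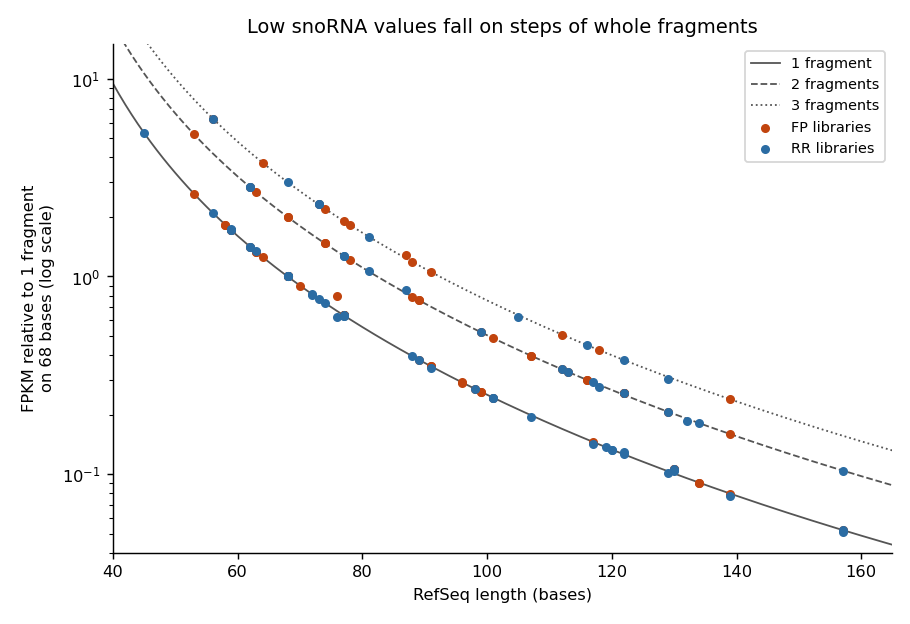
FPKM of snoRNAs with 1 to 3 estimated fragments, divided by the library's FPKM for 1 fragment on 68 bases (log axis), against RefSeq length in bases. Points are single values of FP and RR libraries and lines are the effective length description; values of both groups lie on the same curves, which fall steeply with length.

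The weight of 1 fragment was thus far larger for the shortest members. Snord45b, 45 bases long, had 1 fragment in 1 library, RR 16, which was listed as 2445 FPKM. In this description the ratio of the steps between libraries is the same at every length, so that within a member length scales FP and RR alike. Set against RR 14, the shallowest library, the steps correspond to depths of 2.38, 1.20 and 1.64 in FP 11, 14 and 16, and of 1.57, 1 and 1.75 in RR 11, 14 and 16, as long as the authors applied no scaling between libraries. Estimated fragments are given below beside FPKM for this reason. Intervals on them cover counting error only, and without molecular identifiers fragments need not be separate molecules.

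Box C/D RNAs took 24.8%, 23.2% and 27.2% of the summed FPKM of FP 11, 14 and 16, against 17.7%, 17.7% and 19.8% in RR 11, 14 and 16. All 3 FP libraries lay above all 3 RR libraries, at 25% ± 1.98 and 18.4% ± 1.22 (SD, n = 3 each), a difference of 6.63 percentage points. A single other RNA, Rpph1, weighed heavily in the sum, with 160607, 455416 and 273367 FPKM in FP and 156359, 312438 and 297563 FPKM in RR. Without Rpph1 in the sum, the box C/D shares were 32.4%, 39.0% and 38.2% in FP, against 24.8%, 30.0% and 29.8% in RR. Box H/ACA RNAs took 4.10%, 3.48% and 4.22% in FP, against 3.09%, 2.83% and 3.85% in RR. Their groups overlapped, at 3.93% ± 0.396 and 3.26% ± 0.527 (SD, n = 3 each). With 3 libraries against 3, an exact permutation test cannot go below p = 0.1, so this test could not call either share.

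In fragments the same RNAs were a very small part of each library. All snoRNAs together held 0.142%, 0.229% and 0.211% of the estimated fragments of FP 11, 14 and 16, and 0.0816%, 0.111% and 0.160% of those of RR 11, 14 and 16. Of the FPKM sum they held 28.9%, 26.7% and 31.4% in FP and 20.8%, 20.6% and 23.7% in RR. For Snord members alone the fragment shares were 0.121%, 0.195% and 0.177% in FP, against 0.0682%, 0.0923% and 0.131% in RR. Here FP 11 lay below RR 16, so the separation seen in shares of FPKM did not hold in shares of fragments. At each library number the FP share was still above the RR share. Snora members held 0.0215%, 0.0339% and 0.0340% of fragments in FP, against 0.0134%, 0.0183% and 0.0291% in RR, again with overlap. Another measure, the share of FPKM times annotated length, separated the groups in both classes. For Snord it was 1.91%, 2.32% and 2.34% in FP, against 1.26%, 1.47% and 1.61% in RR. For Snora it was 0.335%, 0.371% and 0.400% in FP, against 0.238%, 0.260% and 0.333% in RR, a narrow gap. Separation thus depended on the measure.

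**Figure D2:**
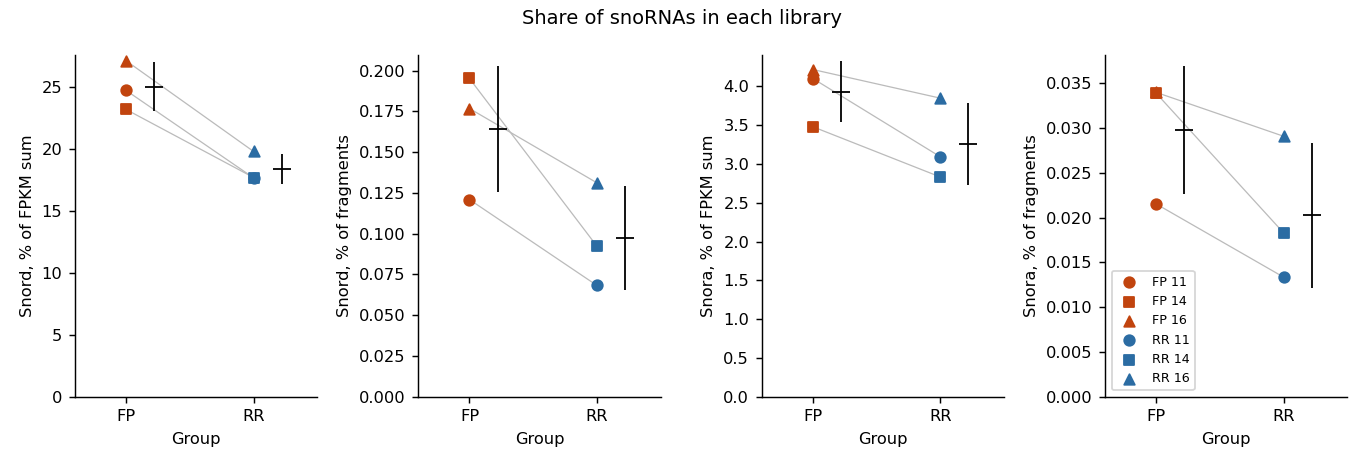
Share of box C/D (Snord) and box H/ACA (Snora) RNAs in percent of the FPKM sum and in percent of estimated fragments, for FP at the left and RR at the right of each panel. Points are libraries, grey lines join libraries of one number, and the cross with its bar is the group mean ± SD (n = 3); only the Snord share of the FPKM sum separates the groups, and each line falls to the right.

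Ranks within a library do not use the size of FPKM, but they are the order of the same length-dependent values, so 1 fragment suffices for a high rank. The lowest snoRNA above 0 in a library stood at percentile 90.6, 98.1 and 96.1 in FP and 95.4, 97.5 and 97.0 in RR, and Snord45b, with its 1 fragment, stood at position 26 in RR 16. Of the 10 highest symbols of a library, 7, 6 and 6 were snoRNAs in FP and 7, 7 and 5 in RR. The median Snora member above 0 somewhere stood at percentile 98.9, 99.4 and 99.4 in FP, against 98.8, 99.3 and 99.2 in RR. For Snord the median stood at 99.2, 99.3 and 99.6 in FP, against 8.75, 9.30 and 99.2 in RR. The low RR 11 and RR 14 values mark libraries in which the median Snord member was at 0. Over the 10 Snord members above 0 in all 6 libraries the median percentile was 99.96 ± 0.00474 over FP and 99.96 ± 0.0101 over RR (SD, n = 3 each), with overlap. Over the 13 such Snora members it was 99.84, 99.86 and 99.84 in FP, against 99.75, 99.77 and 99.82 in RR, where every FP library lay above every RR library.

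A fit with limma across the 14789 genes whose mean reached 1 FPKM, on log2(FPKM + 1), called 143 genes between FP and RR (0.967%) at a Benjamini-Hochberg adjusted p under 0.05. All 76 snoRNAs above 0 anywhere entered this fit, and 0 of them were called. Without adjustment, limma gave p under 0.05 for 15 of the 76, of which 14 were higher in FP and 1 was lower, while 10.3% of all genes had such a p (5.77% with a higher FP). Groups did not overlap for 11 of 76 members, all with FP above RR, against 8.74% of all genes in that direction, and for 0 members with FP below RR, against 7.28% of all genes. FP lay above RR at each of the 3 library numbers for 25 of 76 members, against 21% of all genes. The estimated change was above 0 for 58 of 76, against 51.6% of all genes. Its median was 0.83 over the 32 Snora members and 1.04 over the 44 Snord members on the log2 scale, and 0.02 over all genes. Raising the filter from 1 to 5 FPKM left 6914 genes, and their median was 0.14, so the better expressed genes leaned to FP as well. Calls under that filter were 102 higher and 63 lower in FP. Of the 76, 14 were above 0 in only 1 library, so that library's group alone let them in and set their direction. The same holds for some members above 0 in more than 1 library. Snord7, Snord66 and Snord70 were at 0 throughout RR, with estimates of 4.92, 6.51 and 7.37. Snord88a was at 0 throughout FP, with an estimate of -5.96. The counts are thus a description, and the shares of all genes are not a like-for-like measure for them. In these bulk samples, fewer cells of a type and less RNA per cell cannot be told apart.

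Most of these members rest on very few fragments. The mean over the 6 libraries was below 1 fragment for 33 of the 76, and their estimated changes ran widely in both directions. Only 18 members averaged 10 fragments or more, and these held 98.0% of all snoRNA fragments. All 18 had an estimate above 0, with a median of 0.77 and a range of 0.18 to 1.48, and 15 of the 18 were higher in FP at each library number. They are a description and not a test, since 4 of them (Snora70, Snord100, Snord34 and Snord55) averaged 10 fragments in FP but not in RR, and 0 the other way round. The other 14 averaged 10 or more in both groups, and all 14 had estimates above 0, with a median of 0.76. Within library numbers 11, 14 and 16, the median change of the 10 Snora members among them was 0.93, 1.04 and 0.42, and that of the 8 Snord members 0.87, 0.82 and 0.50. All genes had 0.07, 0.02 and 0.00, a reference that includes many genes of low FPKM. Rescaling the libraries to their FPKM without small RNAs moved the median of all genes to -0.12 and that of the 18 to 0.61, with all 18 still above 0. After quantile normalization, which ties each library to one distribution and so keeps only ranks, 13 of the 18 were above 0, 1 was at 0 within 1e-06 (Snord22) and 4 were below (Snora21, Snora81, Snord17 and Snord34), with a median of 0.32.

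**Figure D3:**
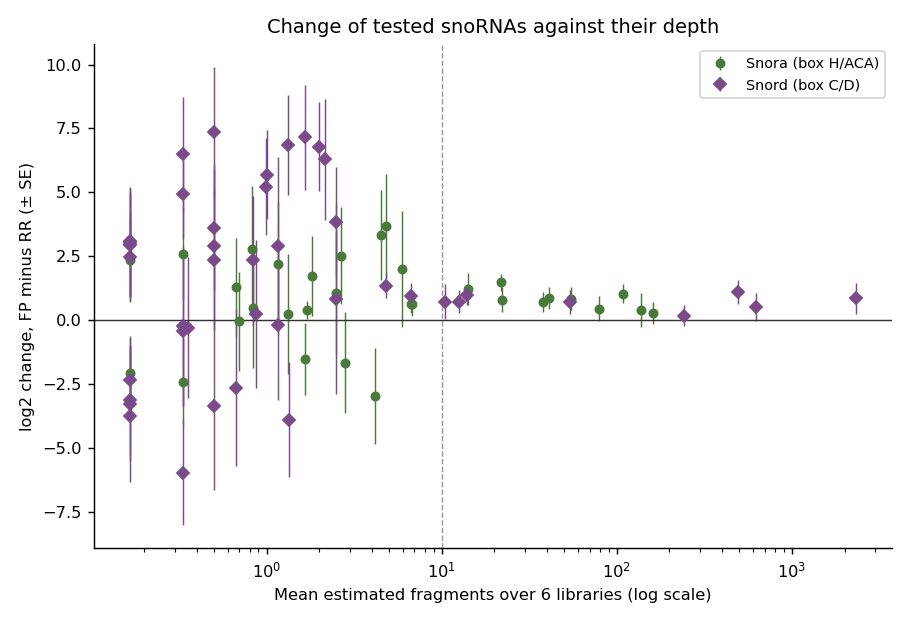
Estimated log2 change, FP minus RR, with its standard error (limma), for the 76 tested snoRNAs against their mean estimated fragments over 6 libraries (log axis). The dashed line marks 10 fragments: to its right 18 members lie between 0.18 and 1.48, and to its left estimates spread to both sides of 0.

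Among the box C/D RNAs, 3 members set the totals. Snord15b, Snord22 and Snord15a together held 75.7% of all snoRNA fragments and 62.7% of snoRNA FPKM. Snord15b, a U15 RNA, a family that guides methylation of the large subunit rRNA, had 77619, 119373 and 112444 FPKM in FP 11, 14 and 16, against 40876, 53310 and 81135 FPKM in RR 11, 14 and 16. These were 3353, 2596 and 3342 estimated fragments in FP and 1161, 966 and 2567 in RR. FP 11 lay below RR 16, so the groups overlap, and the log2 change was 0.85 ± 0.59 (SE, limma adjusted p = 0.716). It stood at position 2 or 3 among all symbols of every library.

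Snord15a, the other U15 RNA of the same host gene, had 16016, 25134 and 23372 FPKM in FP, against 7475, 9625 and 13214 FPKM in RR. Its 743, 587 and 746 fragments in FP compare with 228, 187 and 449 in RR. Every FP value was above every RR value, with a mean 2.13 times as high and a log2 change of 1.10 ± 0.47 (SE, limma adjusted p = 0.466). After quantile normalization this change was 0.09. Snord15a stood at position 5 or 6 in all libraries, so that normalization leaves it almost no change.

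Snord22, the U22 RNA needed in frog oocytes for processing of the small subunit rRNA, had 28389, 54365 and 45712 FPKM in FP, against 20008, 30930 and 39587 FPKM in RR. In fragments these were 751, 724 and 832 in FP and 348, 343 and 767 in RR. The groups overlap, the log2 change was 0.51 ± 0.55 (SE, limma adjusted p = 0.836), and it stood at position 4 in all 6 libraries. Of 12 snoRNAs listed for cleavage of the rRNA precursor, 6 had a row, and 2 were above 0 anywhere, namely Snord22 and Snora62. Snora62 had 0, 1.06 and 1.06 estimated fragments in FP and 0, 1.03 and 1.06 in RR, which allows no comparison.

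The 4 box C/D RNAs of Rpl13a, a ribosomal protein gene whose snoRNAs have been tied to lipotoxic stress in mammalian cells, were all above 0. Snord33 had 15388, 16981 and 17892 FPKM (90, 50 and 72 fragments) in FP, against 6501, 12912 and 13073 FPKM (25, 31.7 and 56 fragments) in RR. Its groups did not overlap, yet the change of 0.70 ± 0.47 did not pass (SE, limma adjusted p = 0.71). Snord34 had 7146, 12700 and 7653 FPKM in FP, against 4576, 7187 and 4621 FPKM in RR, and its groups overlap by the small margin between FP 11 and RR 14. Behind it stood 19, 17 and 14 fragments in FP and 8, 8.02 and 9 in RR. The exact 95% Poisson interval of its 19 fragments in FP 11, 11.4 to 29.7, overlaps that of the 8 in RR 11, 3.45 to 15.8. Neither is scaled for depth, which was higher in FP 11 than in RR 11. Snord32a had 10, 8 and 8 fragments in FP, against 2, 2.97 and 9 in RR, and Snord35a had 2, 2 and 1 in FP against 0, 0 and 1 in RR.

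A further 3 box C/D members averaged 10 fragments or more. Snord55 had 5724, 4467 and 5645 FPKM in FP, against 2487, 1934 and 3908 FPKM in RR. No RR value reached the lowest FP value, and the log2 change was 0.98 ± 0.40 (SE, limma adjusted p = 0.45). Snord100, from Rps12, had 8, 11 and 22 fragments in FP against 3, 7 and 12 in RR, with overlap and a change of 0.72 ± 0.68 (SE). Snord17, at 221 bases the longest member with a RefSeq length, had the smallest estimate of the 18. It had 1559, 3262 and 1927 FPKM in FP and 1476, 1865 and 2469 FPKM in RR, a change of 0.18 ± 0.41 (SE, limma adjusted p = 0.944), which was -0.25 after quantile normalization.

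Among the box H/ACA RNAs, Snora24 had the smallest p of all snoRNAs. In human cells it guides pseudouridylation of the small subunit rRNA. It had 1563, 1601 and 1494 FPKM in FP 11, 14 and 16, against 409, 580 and 719 FPKM in RR 11, 14 and 16. The FP values lay close together and every one was far above the highest RR value. FP averaged 2.73 times RR (1553 ± 54.0 and 569 ± 156, SD, n = 3 each), a log2 change of 1.48 ± 0.33 (SE, limma adjusted p = 0.107). The fragments were estimated at 46.1, 23.8 and 30.3 in FP and 7.93, 7.18 and 15.5 in RR, and after rounding to whole fragments exact 95% Poisson intervals were taken. At number 11 they ran from 33.7 to 61.4 in FP and from 3.45 to 15.8 in RR, at number 14 from 15.4 to 35.7 in FP and from 2.81 to 14.4 in RR, and at number 16 from 20.2 to 42.8 in FP and from 9.15 to 25.98 in RR. The intervals overlap at number 16, and those of FP 14 and RR 16 overlap too. They are of fragments not scaled for depth, which was higher in FP than in RR at numbers 11 and 14. Gaps between the intervals are therefore not gaps between levels. Its change was 1.32 with rescaling and 1.19 with quantile normalization.

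Snora23 and Snora16a were the other box H/ACA members whose groups did not overlap. Snora23 had 1588, 2567 and 2529 FPKM (156, 127 and 171 fragments) in FP, against 913, 897 and 1473 FPKM (59, 37 and 106 fragments) in RR. Its estimated change was 1.03 ± 0.38 (SE, limma adjusted p = 0.374), and the highest RR value, in RR 16, lay just below the lowest FP value, in FP 11. Snora16a had 1882, 1898 and 2146 FPKM in FP, against 748, 1348 and 1700 FPKM in RR, a change of 0.72 ± 0.39 (SE, limma adjusted p = 0.62).

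The remaining box H/ACA members with 10 fragments or more overlapped between the groups. Snora21, the most abundant of the class, had 9517, 9665 and 8164 FPKM in FP, against 6856, 5836 and 10454 FPKM in RR, and RR 16 was its highest library. Its change of 0.28 ± 0.42 (SE) became -0.45 after quantile normalization. Snora64 had 4066, 4865 and 5909 FPKM in FP, against 1937, 2287 and 4548 FPKM in RR, a change of 0.85 ± 0.44 (SE, limma adjusted p = 0.597). Snora15 had 3029, 3810 and 4989 FPKM in FP, against 1459, 2004 and 3170 FPKM in RR, a change of 0.88 ± 0.42 (SE, limma adjusted p = 0.543). In both, only RR 16 reached into the range of FP. Snora81 varied with the library number in both groups. It had 1479, 4648 and 4827 FPKM in FP and 1033, 3086 and 4638 FPKM in RR, so that both libraries numbered 11 were lowest, and its change of 0.39 ± 0.67 (SE) was -0.09 after quantile normalization. Snora70, Snora26 and Snora74a had changes of 1.21 ± 0.63, 0.81 ± 0.50 and 0.46 ± 0.47 (SE).

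**Figure D4:**
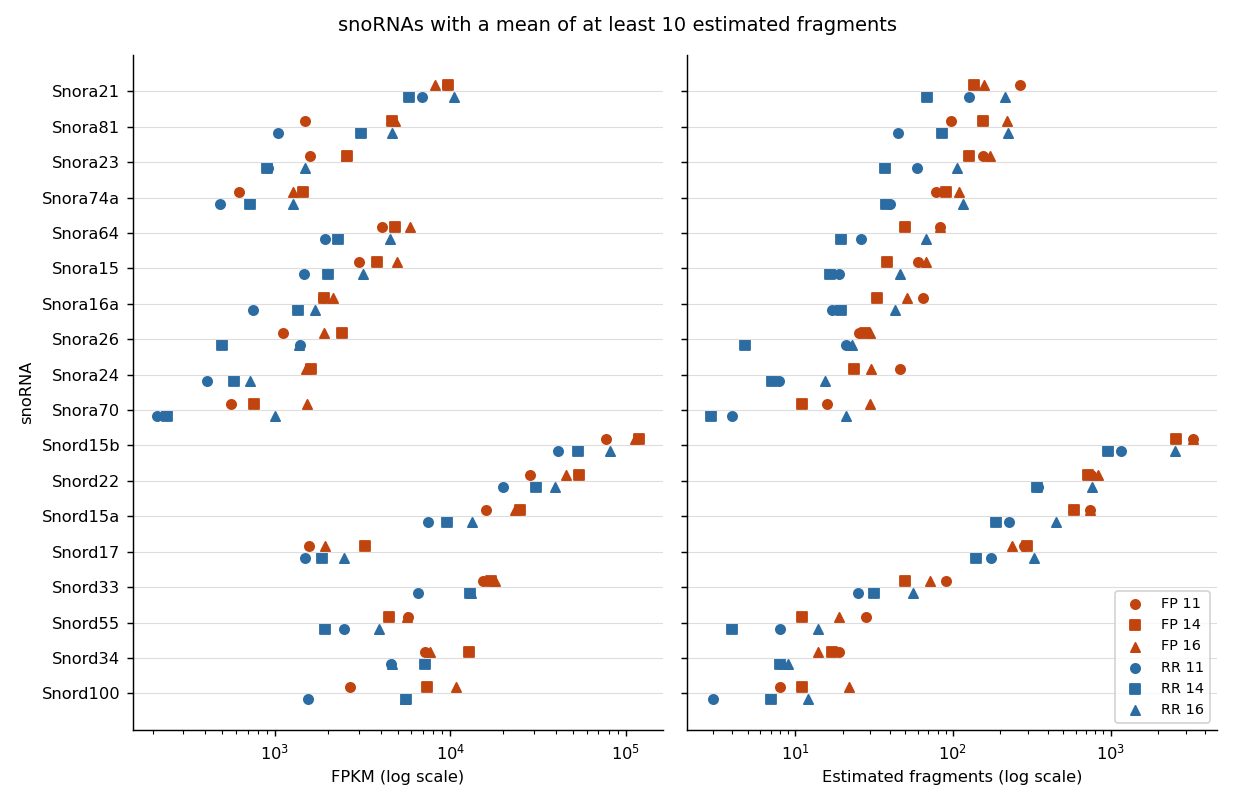
FPKM (left) and estimated fragments (right), both on log axes, of the 18 snoRNAs with a mean of at least 10 estimated fragments, with FP points above RR points for each RNA. Each point is 1 library; Snora24 and Snord15a show all FP libraries to the right of all RR libraries in FPKM, and RR 16 is the highest RR library for 15 of the 18.

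RR 16 was the highest RR library in FPKM for 15 of these 18 members, and the calls of some members with very few fragments turn on it. Snord123 had 6, 3 and 2 fragments in FP and 0, 0 and 1 in RR. Snord2 had 6, 1 and 2 in FP and 0, 0 and 1 in RR, and Snord87 had 2, 3 and 2 in FP and 0, 0 and 1 in RR. With Snord35a these are the 4 Snord members with the largest estimates among those whose groups did not overlap, at 5.70 to 7.15 on the log2 scale, where a 0 in RR stands against 186 FPKM or more in FP. None passed (limma adjusted p = 0.172, 0.223, 0.218 and 0.259 for Snord123, Snord2, Snord87 and Snord35a). Without RR 16 all RR values were 0 and all 4 passed, with adjusted p of 0.000241, 0.000264, 0.000283 and 0.000443, so that 1 fragment in 1 library decides the call. Snord88a was the only member with an unadjusted p under 0.05 and a lower FP, and it had 0 fragments in FP and 0, 0.996 and 1 in RR.

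Length, which the choice by symbol did not use, ordered the members by fragments but not by FPKM. Across the 76 members above 0 somewhere, Spearman's rho of RefSeq length was 0.58 with mean fragments and 0.04 with mean FPKM, a description across genes that share libraries and the length term itself. Of the 5 Snord members of 100 bases or more, 4 were above 0 and all of these averaged 10 fragments or more. Of the 40 below 70 bases, 20 were above 0 and 2 averaged 10 fragments or more. For Snora, 31 of the 32 members of at least 100 bases were above 0, and 0 of the 3 below 70 bases. Those 3, Snora19, Snora20 and Snora61, are short only in RefSeq, at 56, 61 and 62 bases. GENCODE gives them 132, 128 and 130 bases, so they do not show that short Snora members went unseen. The 2 annotations gave the same length for only 11 members. The median RefSeq length was 119.5 bases for Snora and 68 for Snord.

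Most members lie in a host gene. GENCODE M21 on mm10 placed 102 of the 110 inside another gene on the same strand, in 74 hosts, of which 21 held more than 1 member. Hosts coding for ribosomal proteins held 11 Snora and 21 Snord members. An intron of every host transcript held 52 members, and of the 18 with 10 fragments or more 6 lay so, 10 lay within an exon of some host transcript, 1 was partly exonic and 1 had no host. Reads of an exonic snoRNA and of its host cannot be told apart where they overlap. The 6 intronic members had a median change of 0.86 (range 0.18 to 1.10) and the 10 exonic ones 0.77 (range 0.39 to 1.48).

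Most, but not all, snoRNAs had a larger estimated change than their host. Over all 69 members with a tested host, many of few fragments, the snoRNA estimate exceeded the host estimate in 50. Among the 17 members with 10 fragments or more and a tested host, in 15 hosts, the snoRNA estimate exceeded the host estimate in 16, and the medians were 0.81 for the snoRNAs and 0.26 for the hosts. The exception was Snord17, at 0.18, in Snx5, at 0.50. Of the hosts 0 were called and 0 had an unadjusted p under 0.05 (limma, smallest adjusted p = 0.562), against 0.967% and 10.3% of all genes. Across these 17 pairs Pearson's r between the changes was -0.30 and Spearman's rho -0.19, given as a description, since pairs share libraries and 2 hosts carry 2 members each. Rps3, the ribosomal protein gene around Snord15b and Snord15a, averaged 164 ± 1.88 FPKM over FP and 137 ± 33.3 FPKM over RR (SD, n = 3 each), a change of 0.29 ± 0.28 (SE). The estimates for Rpl13a and Ipo7 were 0.14 and 0.07.

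Snora24 and its host pointed in opposite directions by estimate. Snora24 lies within an exon of a Snhg8 transcript, so reads of the RNA and its host cannot be told apart where they overlap. Snhg8, a noncoding host gene, had 5.09, 2.53 and 4.98 FPKM in FP, against 6.66, 10.7 and 4.56 FPKM in RR. The groups overlap, and the change was -0.65 ± 0.36 (SE, limma adjusted p = 0.63). The difference between the changes of a snoRNA and of its host was not tested.

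**Figure D5:**
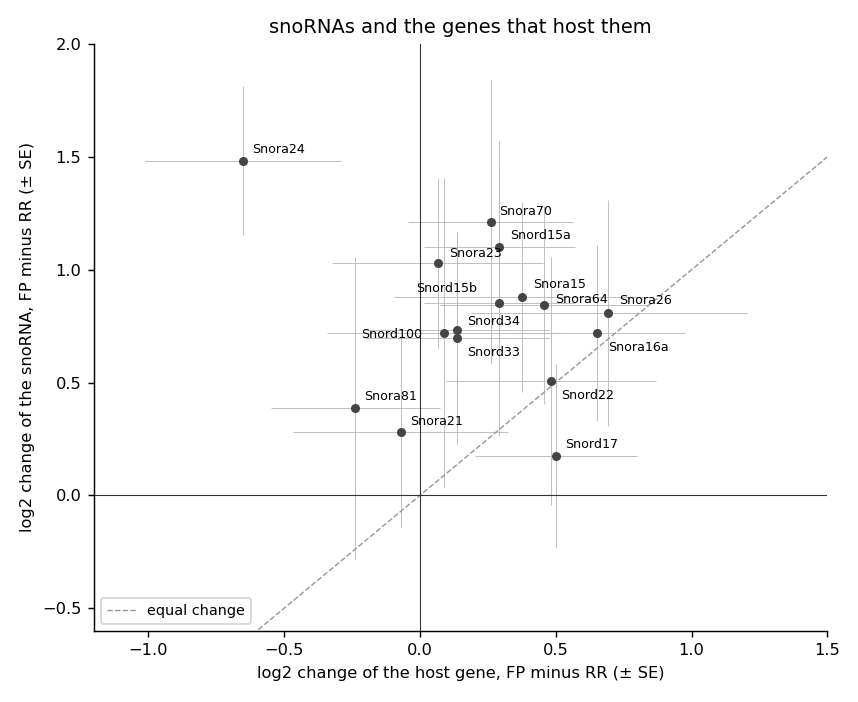
Log2 change, FP minus RR, of each snoRNA with at least 10 estimated fragments against that of its host gene, with standard errors (limma), for 16 of the 17 pairs. Points above the dashed line of equal change have the larger estimate in the snoRNA, which holds for all shown but Snord17.

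Of the proteins that snoRNAs work with, 0 were called by limma in any list, against 0.967% of all genes. The lists tested held 4 box C/D core proteins, 4 box H/ACA core proteins and 13 assembly factors. Of these 1, Fbl, had an unadjusted p under 0.05 in limma, against 10.3% of all genes. The 4 box C/D core proteins all had estimates above 0, with a median of 0.51, where 51.6% of all genes were above 0. Groups did not overlap for 2 of the 4, Fbl and Nop56, with FP above RR, against 8.74% of all genes. In each of the other lists 0 were without overlap. Fbl, the fibrillarin methyltransferase, had 38.8, 35.9 and 48.3 FPKM in FP, against 15.4, 13.4 and 28.3 FPKM in RR. Its groups did not overlap, with a mean 2.16 times as high in FP and a change of 1.13 ± 0.32 (SE, limma adjusted p = 0.224). Nop56, a scaffold of the same particle, had 38.0, 39.2 and 42.9 FPKM in FP, against 25.1, 24.9 and 35.9 FPKM in RR, a change of 0.49 ± 0.26 (SE, limma adjusted p = 0.607). The 4 box H/ACA core proteins divided, with 2 estimates above and 2 below 0: Dkc1, the pseudouridine synthase dyskerin, was at 0.47 ± 0.36 and Nhp2, which binds the RNA in the same particle, at 0.49 ± 0.56 (SE). Of 13 assembly factors 12 had estimates above 0, with a median of 0.35, led by Nolc1, the nucleolar chaperone Nopp140, at 0.68 ± 0.32 (SE, limma adjusted p = 0.524), and Znhit3, a factor of box C/D assembly, at 1.03 ± 0.48 (SE, limma adjusted p = 0.535).

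The noncoding genes listed as snoRNA hosts showed no common direction. Of 15 tested, 0 were called by limma (0.967% of all genes) and 2 had an unadjusted p under 0.05 (10.3% of all genes). Of the estimates, 8 were above 0 and 7 below, where 51.6% of all genes were above 0. The 2 with such a p, Rian and Meg3, were imprinted noncoding genes, both lower in FP by estimate. None of the snoRNA members was placed in either gene. Rian had 30.2, 21.02 and 19.6 FPKM in FP, against 47.7, 52.0 and 40.6 FPKM in RR, without overlap, a change of -0.97 ± 0.27 (SE, limma adjusted p = 0.208). Meg3 had 117, 315 and 157 FPKM in FP, against 229, 625 and 471 FPKM in RR, a change of -1.18 ± 0.48 (SE, limma adjusted p = 0.45). Of the 10 snoRNAs listed for Gas5, 1 had a row, Snord47, and it was at 0 in all 6 libraries, while Gas5 itself had a mean of 47.8 ± 10.3 FPKM over FP and 35.0 ± 13.2 FPKM over RR (SD, n = 3 each).

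Markers of the tissue and of its neighbours moved beside these values, and their part in them was not tested. Over all genes, 51.6% had an estimate above 0, 10.3% had an unadjusted p under 0.05 and 0.967% were called. Groups did not overlap, with FP above RR, for 8.74% of all genes. All 8 chondrocyte markers had estimates above 0, with a median of 0.91 on the log2 scale, beside the 0.77 of the 18 snoRNAs with 10 fragments or more. Groups did not overlap for 4 of the 8, 4 had an unadjusted p under 0.05, and 1 was called, Comp, a cartilage matrix protein, with a mean 11.7 times as high in FP (limma adjusted p = 0.0031). Their summed FPKM, mostly Col2a1, was 50975, 84501 and 80680 in FP and 42766, 67125 and 88382 in RR. Of 7 skeletal muscle markers 7 had estimates above 0, 0 were called and 3 had an unadjusted p under 0.05, and their summed FPKM lay between 115 and 187 in FP and between 29.0 and 158 in RR. Of 6 osteoblast markers 5 had estimates above 0, 2 had an unadjusted p under 0.05 in limma and 1 was called. That was Sp7, the transcription factor osterix. It had 29.3, 40.7 and 36.9 FPKM in FP, against 5.56, 3.08 and 4.23 FPKM in RR, an 8.31-fold higher mean (limma adjusted p = 0.00418). Ibsp, bone sialoprotein, had 138, 191 and 90.8 FPKM in FP, against 41.6, 10.7 and 7.18 FPKM in RR, without overlap and 7.06-fold higher in the mean (limma adjusted p = 0.0571). The others did not share this: Col1a1, Bglap and Bglap2 had lower means in FP, at 393, 5.30 and 0.856 FPKM. Their RR means were 456, 11.1 and 1.30 FPKM. Dmp1 averaged 6.87 FPKM in FP and 6.14 FPKM in RR. The summed osteoblast FPKM, most of it Col1a1, was 263 to 787 in FP and 121 to 1174 in RR. Erythroid, leukocyte and endothelial markers had 0 called of 2, 3 and 4 tested, and 0 with an unadjusted p under 0.05. Erythroid markers summed to 71.3 to 115 FPKM in FP and 51.1 to 115 FPKM in RR, and leukocyte markers to 15.6 to 80.03 FPKM in FP and 12.6 to 59.8 FPKM in RR. Endothelial markers summed to 6.15 to 9.03 FPKM in FP and 5.06 to 15.5 FPKM in RR.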

How the data were processed

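Total RNA from laser-microdissected cartilage was sequenced in 6 libraries, prepared with a SMARTer stranded Pico Input kit per the labels' protocols. Each library has 1 column of FPKM, as the authors deposited it, per the file headers. The submitters' processing notes name Cuffdiff 2.2.1, TopHat2 2.1.1, Bowtie2 2.2.8 and SAMtools 0.1.18, with build mm10. Which annotation was used, whether strand was counted and whether libraries were scaled to each other is not given in those notes. The members and gene lists were chosen with earlier results of these data known.

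The test was limma 3.58.1 (R 4.3.3) on log2(FPKM + 1), with an intensity trend, FP minus RR, two-sided, and Benjamini-Hochberg adjustment over the 14789 genes whose mean reached 1 FPKM. Changes on this scale understate those of genes with low FPKM. This does not hold for snoRNAs of few fragments, where 0 against 1 fragment gives a very large change, as in Snord35a (5.70). Folds are ratios of mean FPKM. The fit was first tested on simulated data. Fragments were estimated as FPKM divided by the library's step at the RefSeq length of the member, found for 109 of 110. Of short RNAs other than snoRNAs, 86.2% of 94 values below 10 fragments were whole. A value of 0 can be a failed estimate, so members with a 0 are given by library. Names, coordinates and hosts come from GENCODE M21 (109 of 110 found) and RefSeq lengths from the mm10 annotation.

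Members named are the 6 of each class with the highest mean FPKM, any past the threshold, and up to 4 in each direction with non-overlapping groups. In other lists they are the 2 with the smallest p. Any other member was named after its values were seen, among them the rest of those with at least 10 fragments. Alternatives were the pseudocount, the filter, the scaling, the trend, the library number as a block and leaving out each library. For 1 host gene no result is reported here, though it stays in the tests and counts. Shares and ranks are printed without a p, since the exact permutation test used for them cannot pass with 3 against 3.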

Additional observations from a re-analysis of the deposited data

How the results depend on the processing

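Of the recomputed summary values 92 stayed within the limits set for them, 27 moved and 1 reversed, and of those for single named members 259 kept direction and side, 9 newly passed and 4 reversed. Calls over all genes were 143, against 83 without the intensity trend, 271 with the library number as a block (Snora calls 1, Snora24, adjusted p = 0.0373), and 42 to 85 without 1 library. Without both libraries numbered 11, 14 or 16, chosen after seeing the data, they were 42, 8 and 20, with 5, 2 and 6 Snord calls and, without those numbered 16, 1 Snora call. Without 1 library, Snora calls stayed 0 and Snord calls were 0 to 4, resting on members at 0 in a whole group. Such fits also took the Snora median change to 0.60 to 1.19, the Snord median to 0.90 to 1.40, the Snora percentile difference to -0.0315 (without RR 11) to 0.265, the Snord one to 45.1 to 90.3, the Snora and Snord share differences to 0.462 to 0.970 and 5.58 to 7.55, and Snora81 to -0.24 (without RR 11) to 0.95. Quantile normalization gave 0.42 (Snora) and 0.58 (Snord) as medians, and -0.45, -0.0882 and -0.0378 for Snora21, Snora81 and Snord34 (also -0.25 for Snord17); it holds the top ranks fixed by construction, and other causes were not tested. The split of calls was 82 higher and 61 lower in FP, and 71 and 76 after rescaling without small RNAs. The library numbers share only a number: deviations of same-numbered libraries correlated at 0.319, 0.185 and 0.089, each library best with its own number, a hint from the data and not from the design. Depth limits the 58 tested members below 10 fragments, where 1 fragment can decide a call.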

Other observations

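Snord15b and Snord15a were compared as a ratio, a pair singled out after their values were seen. In estimated fragments it was 4.51, 4.42 and 4.48 in FP 11, 14 and 16, against 5.09, 5.16 and 5.72 in RR 11, 14 and 16, so the groups did not overlap. Both RNAs lie in Rps3 and are of nearly equal length, so depth and length enter both alike, but Snord15b lies within an exon of some Rps3 transcripts and Snord15a in an intron of all of them. The ratio of Snord33 to Snord34, a pair of Rpl13a, was 4.74, 2.94 and 5.14 in FP, against 3.13, 3.95 and 6.22 in RR, with overlap and with far fewer fragments behind it.

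Members of both classes lie in 4 hosts, among them Rps12 and Eif4a2. Rps12 carries Snord100, at 8, 11 and 22 fragments in FP and 3, 7 and 12 in RR, and Snora33, at 7, 8 and 7 in FP and 0, 2.95 and 4 in RR. Eif4a2 carries Snora81, at 98, 155 and 220 fragments in FP and 45, 85.7 and 225 in RR, and Snord2, at 6, 1 and 2 in FP and 0, 0 and 1 in RR.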
